A study of Abies pinsapo with 12 samples.

Results

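The comparison set needles of thinned stands, shaded or not, against needles of unthinned stands in Spanish fir (Abies pinsapo), over both sampling months. Its members are all 12 libraries of the series, chosen by treatment label alone: 8 from thinned stands and 4 from control stands. Control trees stood in dense, unmanaged forest with strong competition for water and light. Thinned trees stood in neighbouring plots where density had been lowered in 2004, and some of them grew under a mesh that returned the light to roughly the control level. Each of the 3 treatments had 3 plots of 100 m2, and each was sampled in August 2016 and in May 2017 with 2 libraries per month, giving 2 control, 2 thinning and 2 thinning plus shading libraries in each month. All were adult field-grown trees of a single mountain range. The labels tie no library to a tree or plot, so every p-value here reflects only how far these libraries spread, which may be technical.

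Thinning removes neighbours that draw on the same soil water and shade the same crown. A tree left standing therefore gains water and light together, and a mesh over the crown takes back the light but not the water. Needles carry out photosynthesis and lose water through their stomata, so their transcripts are a usual readout of both resources. A difference shared by shaded and unshaded thinned trees follows stand density under either light, and one found in both months follows it at either date. Thinned and control trees are also different trees in different plots, so density cannot be told apart from any other difference between those plots, and a difference between trees would recur in both months if the same trees were sampled in both.

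Values are scaled TPM, a length-corrected relative abundance (TPM) multiplied by 1 factor per library. Sequencing depth cannot be read from such values and is unknown. Transcripts carry only identifiers of a de novo assembly and no gene names, so no function is given, and needle identity could not be checked with marker genes. In an identifier such as TRINITY_DN2080_c0_g2, the part up to the c number is called the component here. Within a component, transcripts may be nearly the same sequence and may share reads. Fewer cells of a type and less RNA per cell cannot be told apart in whole needles.

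The libraries differed more in May than in August. The root mean square SD between the 2 replicates of a group was 0.518 in August and 1.01 in May on the log2 scale. For August, a thinned and a control library correlated at r = 0.806 to 0.869 across transcripts, below every pair of replicates (0.903 to 0.922) and every pair of shaded and unshaded thinned libraries (0.887 to 0.917). In May the same kinds of pair spanned 0.533 to 0.866, 0.407 to 0.83 and 0.47 to 0.887. May libraries were often closer across treatments than within them. Control replicate 1 correlated with thinning replicate 2 at 0.86 and with shaded replicate 2 at 0.861, whereas control replicate 2 correlated with thinning replicate 1 at 0.849 and with shaded replicate 1 at 0.866. The latter 2 thinned libraries correlated at 0.887. The labels name no batch that matches this likeness, and the fits, including those behind the May spread and the 0 calls of May, hold no term for it. Thinning May replicate 1 listed 208032 transcripts above 0, against 81710 to 117855 in the other libraries, and thinning May replicate 2 received the lowest weight, 0.175, when limma estimated 1 weight per library. None of 6 library quantities differed between thinned and control libraries by an exact permutation test within month (two-sided, smallest p = 0.289; adjusted 0.914 or more). For example, 14268 ± 390 transcripts stood at 10 or more in control (SD, n = 4) and 13956 ± 665 in thinned libraries (SD, n = 8).

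A single transcript passed the test for stand density over both months, and it was higher in thinned trees. TRINITY_DN2080_c0_g2 stood at 0 and 0.194 scaled TPM in the control libraries of August and at 0 in both control libraries of May. In August it stood at 8.46 and 23.8 in thinning and at 28.1 and 27.7 in thinning plus shading. In May the thinning libraries stood at 6.84 and 8.18, and the shaded ones at 7.04 and 17.3. The transcript was therefore at or near 0 in all 4 control libraries and at 6.84 or more in all 8 thinned ones, with no overlap in either month. On the log2(scaled TPM + 1) scale it rose by 3.80 (SE 0.37, limma adjusted p = 0.00715), a size that depends on the 1 added before the logarithm, so no fold is given. Of 19726 tested transcripts, 1 (0.00507%) was called higher and 0 lower at an adjusted p under 0.05 by limma, while 936 higher (4.75%) and 1557 lower (7.89%) had an unadjusted p under 0.05, together 12.6%. At an adjusted p under 0.1 there were 24 (0.122%), 13 higher and 11 lower in 20 components. In all 24 the groups did not overlap in either month, against 2.78% of all tested transcripts. These 24 were picked by p on the same libraries, so lack of overlap was favoured by their choice. The call was lost without control August replicate 1 (limma adjusted p = 0.0617) or replicate 2 (0.0671) and with 8 in place of 1 added before the logarithm (0.0749).

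A further transcript of that component, TRINITY_DN2080_c0_g3, followed the same profile at lower levels. It stood at 0.194 or less in every control library and between 2.92 and 17.2 in the thinned ones, and correlated with its neighbour at r = 0.984 over the 12 libraries; reads may be shared between both. Its difference did not pass (2.84, SE 0.44; limma adjusted p = 0.0657). Searching the table for transcripts under 0.5 in every control library and above 0.5 in every thinned one found 3, both of these and TRINITY_DN8579_c0_g1. The reverse search, for presence in every control library and near absence in every thinned one, found 0. Both searches were made after values had been seen. All 3 transcripts found reached 10 in thinned libraries only, and those of TRINITY_DN2080_c0 may share reads. No contrast is therefore drawn between counts of 3 and 0.

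The number of calls depended strongly on 1 library. Without thinning May replicate 2, 155 transcripts were called, 106 higher and 49 lower, and with weights per library 626 were, 282 higher and 344 lower. Leaving out either control August replicate gave 0 calls. Dropping control May replicate 1 or 2 gave 2 or 3 calls, and dropping replicate 1 or 2 of the shaded May trees gave 4 or 3. Each other library left out gave 1 call. Without both thinning May libraries, a setting added after the data had been seen, 69 were called, 50 of them higher.

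The transcripts next in order did not pass, but lay on 1 side of control in both months and under either light. Named here are the 9 highest-ranked of these in the upward direction and 10 in the downward direction, with limma adjusted p between 0.061 and 0.0984. TRINITY_DN15461_c0_g2 stood at 4.82 and 6.08 in control and 63.9, 49.5, 55.6 and 43.5 in thinned libraries in August, with the unshaded pair first. In May it stood at 4.48 and 7.49 in control and 24, 18.8, 12.4 and 25.5 in thinned libraries. The lowest thinned library was thus above the highest control library, with a difference of 2.32 log2 units (SE 0.30, limma adjusted p = 0.061). TRINITY_DN8579_c0_g1 stood at 0.341, 0.3, 0 and 0 in control libraries and between 18.8 and 41.3 in thinned libraries of August. In May it was at 11.3, 8.49 and 16.9 in thinned libraries, but at only 0.665 in thinning May replicate 2.

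**Figure D1:**
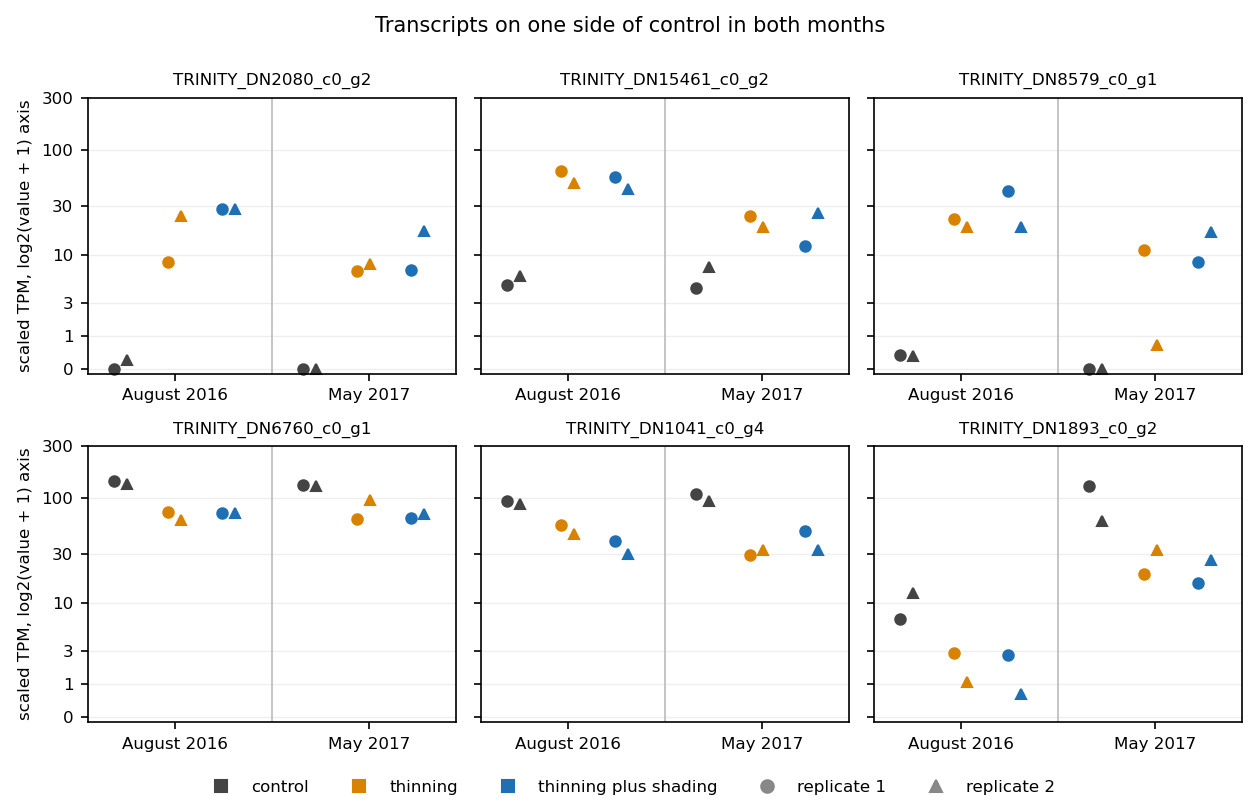
Scaled TPM per library, on a log2(value + 1) axis, for 3 transcripts higher and 3 lower in thinned trees; colours give the treatment, circles replicate 1 and triangles replicate 2, with August to the left and May to the right. In each panel the 4 coloured points of a month lie on 1 side of the 2 grey control points. TRINITY_DN8579_c0_g1 stands at only 0.665 in thinning May replicate 2, over May controls at 0.

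Further upward transcripts were already expressed in control trees. TRINITY_DN15987_c1_g2 stood at 79.7, 91.9, 109 and 82.8 in the control libraries and between 147 and 194, with a median of 165, in the thinned ones. Its difference was 0.87 log2 units (SE 0.13; limma adjusted p = 0.0616), and no thinned library overlapped a control library in either month. Of the 2 tested transcripts of its component (r = 0.789 between both), only this 1 was separated in both months. TRINITY_DN432_c0_g1 was at 13.2 ± 2.07 in control (SD, n = 4) and 28.1 ± 5.04 in thinned libraries (SD, n = 8). TRINITY_DN39674_c0_g1 was at 13.2 ± 3.06 and 33.0 ± 8.87, and TRINITY_DN3422_c0_g1 at 27.0 ± 3.65 and 45.8 ± 4.41. The differences of TRINITY_DN432_c0_g1 were 1.40 log2 units in August and 0.64 in May, and those of TRINITY_DN39674_c0_g1 were 1.57 and 0.92. The remaining upward transcripts, TRINITY_DN1441_c1_g1, TRINITY_DN3210_c0_g2 and TRINITY_DN2700_c2_g1, had differences of 2.26, 2.04 and 1.02 log2 units. These, TRINITY_DN15461_c0_g2 and TRINITY_DN8579_c0_g1 reached 10 in thinned libraries only, so they entered the test only through that group.

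Among the downward transcripts, the 2 highest-ranked components each gave 2 members. TRINITY_DN6760_c0_g1 stood at 143, 134, 132 and 129 scaled TPM in the control libraries. In thinned libraries it stood between 62.3 and 95.7 with a median of 70.8, so that control levels were nearly constant and all thinned levels lower. The difference was -0.91 log2 units (SE 0.13; limma adjusted p = 0.0616), and TRINITY_DN6760_c0_g2 had -0.88, with r = 0.993 between both transcripts. TRINITY_DN1041_c0_g4 stood at 94.2, 88, 108 and 93.9 in control and between 29.4 and 56.3 in thinned libraries (-1.29, SE 0.18). TRINITY_DN1041_c0_g2 had the same difference of -1.29, and the other 2 of the 4 tested transcripts of that component were not separated in both months.

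TRINITY_DN1893_c0_g2 combined a month difference with a density difference. It was at 6.87 and 12.7 in control in August and at 129 and 60.8 in control in May. Thinned libraries were at 0.636 to 2.87 in August and at 15.8 to 32.4 in May, below the controls of their own month each time (-1.95, SE 0.31; limma adjusted p = 0.0657). All 4 tested transcripts of its component were lower without overlap in both months. TRINITY_DN1893_c0_g1, TRINITY_DN1893_c0_g3 and TRINITY_DN1893_c0_g4 differed less, by -1.07, -1.32 and -1.22 log2 units, and did not pass (limma adjusted p = 0.207, 0.178 and 0.229). Their controls also changed less between the months: TRINITY_DN1893_c0_g1 stood at 44.5 and 26.7 in August and at 55 and 42.6 in May. The other downward members were TRINITY_DN793_c0_g1, TRINITY_DN40878_c0_g1, TRINITY_DN1356_c1_g4, TRINITY_DN1517_c0_g1 and TRINITY_DN192_c0_g1, with differences between -1.21 and -0.70 log2 units. In the component of TRINITY_DN1356_c1_g4 only this 1 of 5 tested transcripts was separated in both months. The 20 ranked transcripts were chosen by no overlap and small p on libraries that the following fits mostly reuse, which favoured their passing. Without thinning May replicate 2, where 155 transcripts were called in all, all 20 of these ranked transcripts passed by limma. Without both thinning May libraries 16 did, and with quantile normalization 15 did. By contrast, 0 of the 20 passed without either control August library or with 8 added before the logarithm, and 1 passed without the library factor or without the intensity trend.

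The light difference of these transcripts is a description only: their choice favoured small values, since it asked shaded and unshaded libraries to lie on 1 side of control and ranked by a fit without a light term. Unshaded minus shaded thinned trees gave between -0.98 and 0.21 log2 units in the 10 upward and between -0.42 and 0.24 in the 10 downward transcripts. The 95% intervals of these light differences reached from -2.32 to 1.05, so they are wide for the most variable ones, whereas the interval ran from -0.41 to 0.26 for TRINITY_DN15987_c1_g2. Over all transcripts, 0 were called for light by limma (smallest adjusted p = 0.222), with 736 (3.73%) at an unadjusted p under 0.05, 6 were called without thinning May replicate 2 and 5 with weights per library. The comparisons of each thinned treatment with control share the control libraries and are given side by side only. TRINITY_DN2080_c0_g2 differed from control by 3.81 in unshaded and 4.73 in shaded trees in August, and by 3.08 and 3.60 in May. For TRINITY_DN6760_c0_g1 these were -1.03 and -0.94 in August and -0.73 and -0.94 in May.

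**Figure D2:**
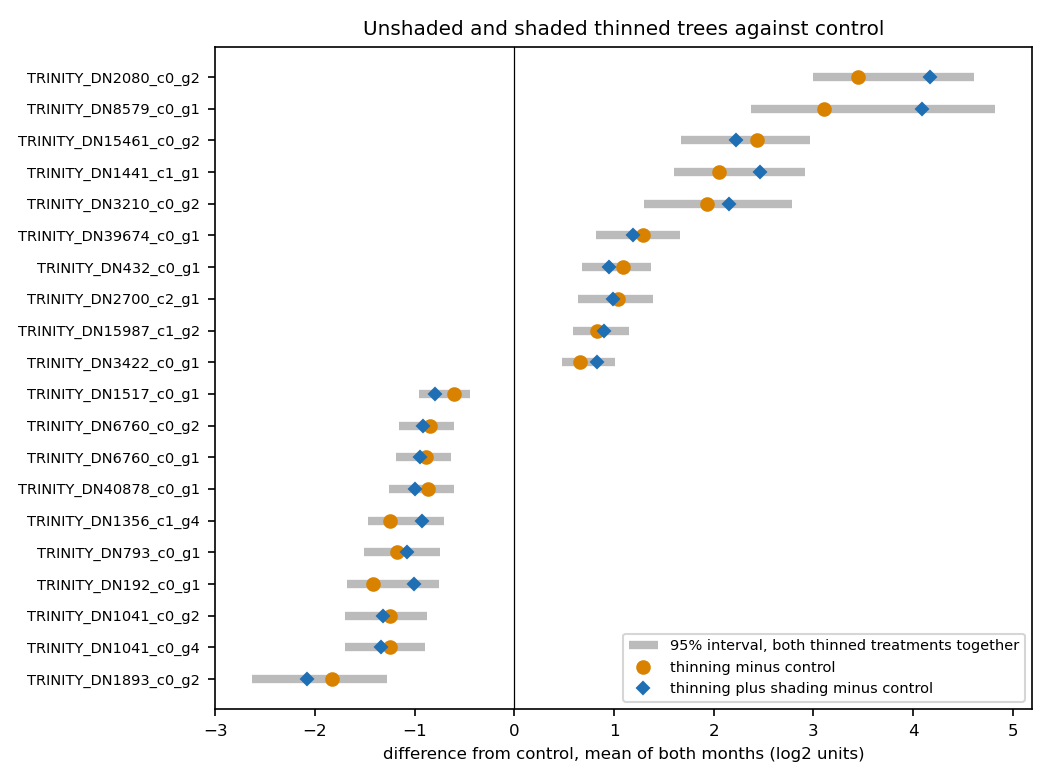
Difference from control in log2 units, averaged over both months, for the 20 highest-ranked transcripts; circles are unshaded and diamonds shaded thinned trees, each against the same control libraries, and grey bars are 95% intervals of both together, before adjustment. The distance between circle and diamond is at most 0.98, for TRINITY_DN8579_c0_g1, and small distances were favoured by how the transcripts were ranked.

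Counting transcripts by overlap alone gave a larger set. In 187 transcripts (0.948% of those tested) all 4 thinned libraries lay above both controls in each month, and in 362 (1.84%) below, against 74 (0.375%) that were higher in August and lower in May and 68 (0.345%) the other way. The same direction in both months was therefore found in 549 transcripts (2.78%) and opposite directions in 142 (0.72%). Without regard to month, all 8 thinned libraries lay above all 4 control libraries in 78 transcripts (0.395%) and below them in 100 (0.507%). This share can be read against each month alone, whose libraries are separate. Of 2600 transcripts separated upward in August (13.2% of all), 7.19% were also separated upward in May, where 3.07% of all transcripts were. Of 3064 separated downward in August (15.5%), 11.8% were also separated downward in May, against 7.86% of all. As shares of the May lists, the shared transcripts made up 30.9% of 606 upward and 23.3% of 1551 downward transcripts.

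The split into directions depended on scaling. The median transcript was lower in thinned than in control libraries by 0.121 log2 units in May, in which 63.9% of all transcripts lay below 0, while the August median differed by -0.013. After quantile normalization, which brought the May median to -0.026, 391 transcripts were separated upward and 199 downward in place of 187 and 362. Without the library factor the numbers were 187 and 347. Leaving out a library loosens the condition: the count was 1436 without thinning May replicate 2, 1392 and 1129 without control May replicate 1 and 2, 831 without control August replicate 1, and at most 789 without any other.

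Most of the 549 differences were modest. The median was 0.69 log2 units in the upward set and -0.51 in the downward set. On the log2(scaled TPM + 1) scale, 48 of 187 and 57 of 362 differed 2-fold or more. These are not folds of scaled TPM itself. Upward transcripts stood at a median of 11 scaled TPM in control and 16.8 in thinned trees, and downward ones at 22.8 and 14.6. The upward set fell in 164 components, of which 22 gave several members, and the downward set in 280, of which 80 did; 0 components gave members in both directions. The upward differences were larger in August than in May in 136 of 187 transcripts (72.7%; medians 0.76 and 0.56), against 65.4% of all transcripts higher in both months. The downward ones were larger in August in 204 of 362 (56.4%; medians -0.52 and -0.51), against 47% of all lower in both months. Over all tested transcripts, the May minus August difference had a median of -0.116 log2 units.

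Some large differences in this set rested on uneven libraries, and these transcripts were picked after their values had been seen. TRINITY_DN12715_c0_g1 stood at 254 and 573 in control in May and at 6.75 to 25.4 in thinned libraries, but in August at 49.6 and 70.9 against 43.2, 46.7, 13.1 and 1.55. Its controls were thus only just above the unshaded thinned trees in August, and the difference did not pass (-3.27, SE 0.82; limma adjusted p = 0.198). TRINITY_DN10250_c0_g1 stood at 18 and 39.3 in control and 1.4 to 6.97 in thinned libraries in August, and at 390 and 702 against 22.8 to 233 in May (-2.89, SE 0.54; limma adjusted p = 0.12). TRINITY_DN8597_c0_g2 separated from control under both lights but unequally: it stood at 34.1 and 44.7 in unshaded and 0.623 and 0.397 in shaded trees in August, over controls at 0.129 and 0.115.

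**Figure D3:**
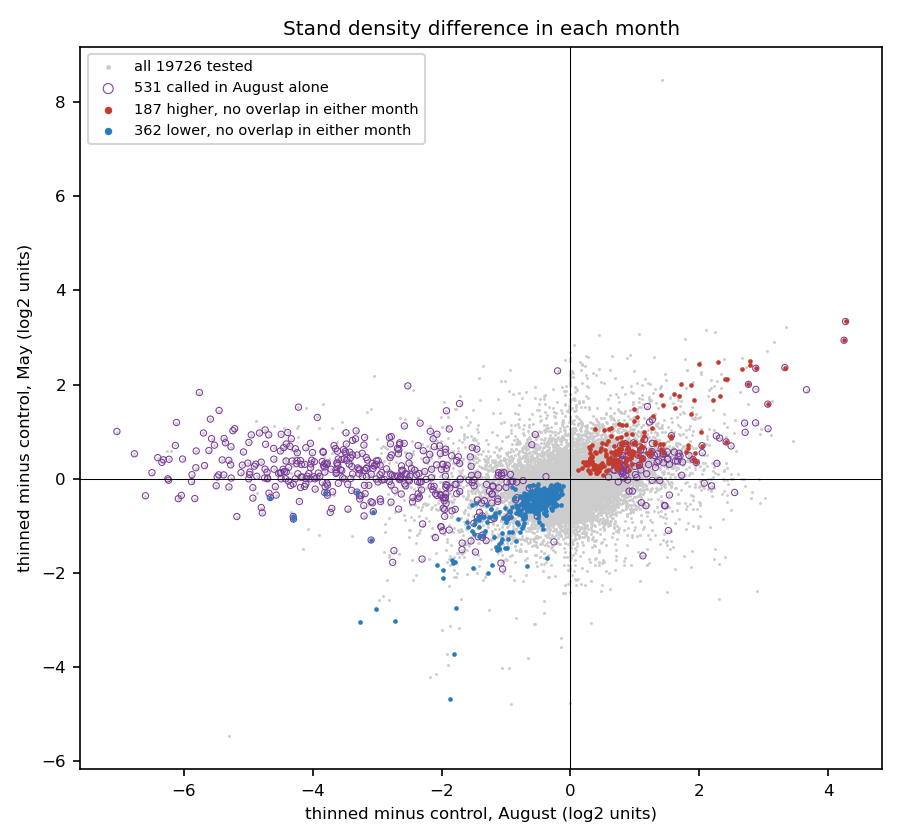
Thinned minus control difference in log2 units in August (horizontal) and May (vertical) for the 19726 tested transcripts in grey; filled points are the 187 and 362 transcripts with no overlap in either month, and open circles the 531 called in August alone. Filled points form a diagonal, by their choice, while most open circles to the left lie along the horizontal line; 204 of the 421 called lower in August reached 10 in control August libraries alone.

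In August alone, where replicates were closest, thinned trees differed from control in 531 transcripts (2.69%) by limma, 110 higher (0.558%) and 421 lower (2.13%), with 3534 (17.9%) at an unadjusted p under 0.05. The largest rises were those of TRINITY_DN2080_c0_g2 (4.27, SE 0.52), TRINITY_DN8579_c0_g1 (4.24, SE 0.36) and TRINITY_DN24239_c0_g2 (3.66, SE 0.31; limma adjusted p = 0.00886). TRINITY_DN24239_c0_g2 was listed at 0 in all 4 control libraries, stood between 7.25 and 15.6 in thinned libraries of August and at 5.52, 0, 2.97 and 6.33 in May, with the 0 in thinning May replicate 2. These largest rises all reached 10 in thinned libraries only, so they passed the filter only through the group in which they stood high. The largest falls were those of TRINITY_DN2939_c1_g1 and TRINITY_DN2939_c0_g1, whose identifiers share the DN number, and of TRINITY_DN2899_c0_g1. All 3 passed the filter only with the control August libraries, the group in which they stood high. TRINITY_DN2939_c0_g1 and TRINITY_DN2899_c0_g1 reached 10 in no other library. TRINITY_DN2899_c0_g1 stood at 339 and 317 in control and between 1.03 and 4.05 in thinned libraries (-6.59, SE 0.37; limma adjusted p = 0.00424), then at 4.86 and 3.80 in control and 1.32 to 9.6 in thinned libraries of May. TRINITY_DN2939_c1_g1 stood at 214 and 140 in control in August, was listed at 0 in both control libraries of May, and was at 15.2 in thinning May replicate 2. Dropping control August replicate 1 or 2 gave 54 or 36 calls in place of 531, with 3 higher each time, and only 12 and 15 of these were among the 531. The number was 135 or 144 when replicate 1 or 2 of the unshaded thinned trees was dropped, and 137 when replicate 2 of the shaded trees was.

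In May alone 0 transcripts were called by limma, with 605 (3.07%) at an unadjusted p under 0.05, and 0 were called in any of the 6 fits without 1 May library. The median 95% interval reached 0.951 log2 units to either side in May, against 0.596 in August.

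Transcripts called in August were then described by their May values. The months share no library, and May values entered the calls of August only through the filter, which admitted transcripts at 10 or more in any 2 of the 12 libraries. Of the 110 transcripts higher in August, 94 (85.5%) were also higher in May, where 36% of all tested transcripts were, with a median May difference of 0.39 log2 units against -0.12 over all. Their medians in May were 0.30 in unshaded and 0.48 in shaded trees, each against the same controls. Measured from the May median of all transcripts, 90% of the 110 lay above it. All 4 thinned libraries of May lay above both controls in 22 of them (20%, against 3.07% of all). Without 1 May library in turn, 75.2% to 86.1% were higher in May, against 35.8% to 41.4% of all transcripts.

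Of the 421 transcripts lower in August, 204 (48.5%) reached 10 in the control August libraries alone, against 1.6% of all tested, and only 152 (36.1%) reached 10 in 2 or more May libraries, against 86.9%. Whether their low May levels limited a fall there was not tested. Of the 152, a subset formed after the values had been seen, 63.2% were lower in May, against 66.3% of all transcripts that reached 10 there. Over the whole set, the median August difference of -3.16 log2 units stood beside a median of 0.08 in May, and 171 (40.6%) were lower in May, against 63.9% of all transcripts. All 4 thinned libraries lay below both controls of May in 12 of them (2.85%, against 7.86% of all). In August their levels had a median of 34.7 scaled TPM in control and 2.79 in thinned trees; the May medians were 2.98 and 4.34. Without thinning May replicate 2 the share lower in May was 56.4%, against 59.1% of all, and with weights per library 55.3% against 61.5%. The largely different transcripts called without control August replicate 1 (51 lower) or 2 (33 lower) were lower in May in 74.5% and 66.7%, against 64.5% and 64.4% of all.

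**Figure D4:**
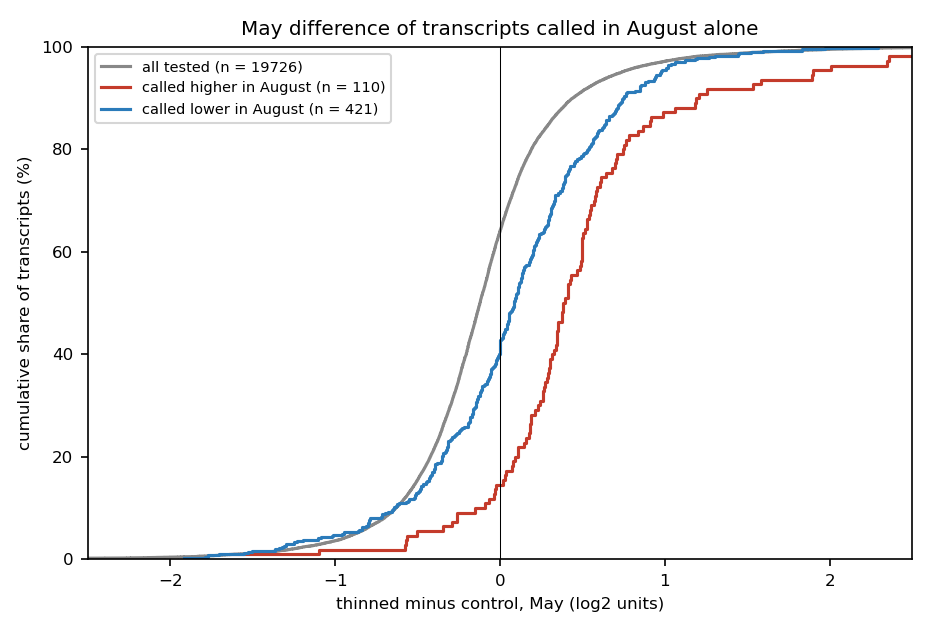
Cumulative share of transcripts, in percent, by their thinned minus control difference in May in log2 units, for all tested transcripts and for those called higher or lower in August alone. The curve of the 110 higher transcripts lies to the right of all others, with 14.5% below 0, while that of the 421 lower ones crosses 0 at about 40.6% and does not lie to the left of all tested transcripts.

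A test of whether the density difference itself differed between the months called 49 transcripts by limma (0.248%), with 1194 (6.05%) at an unadjusted p under 0.05. In 48 of them (0.243% of all) the difference was higher in May than in August, and all 48 were among the 421 lower in August, in 43 components. Both control August libraries stood above the other 10 libraries in each of the 48, and 24 of them passed the filter through those 2 libraries alone. Control trees of August had a median of 103 scaled TPM over these 48, against 4.87 in thinned trees in August and 3.22 and 5.64 in control and thinned trees in May. TRINITY_DN3201_c0_g1 stood at 809 and 329 in control in August, at 4.61 to 7.06 in thinned libraries of August, at 4.84 and 3.85 in control in May and at 3.22 to 14.5 in thinned libraries of May (difference between the months 6.72, SE 0.69; limma adjusted p = 0.0156). TRINITY_DN2751_c0_g1 and TRINITY_DN2186_c0_g1 showed the same shape, at 165 and 91.4, and at 492 and 188, in control in August and at 10.8 or less in every other library. Only 1 transcript was called the other way. TRINITY_DN2980_c0_g2 stood at 11.6 and 12 in control and 26.7 to 40.9 in thinned libraries in August, and at 11.1 and 9.70 against 4.81 to 8.52 in May (-2.04, SE 0.34; limma adjusted p = 0.0449).

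These 49 calls depended on several single libraries and on 1 spread per transcript over both months. They numbered 0 when control August replicate 1, either unshaded August library or either control May library was dropped, and 9 when control August replicate 2 was. Dropping shaded August replicate 1 gave 55, of which 37 were among the 49, and dropping shaded August replicate 2 left 5. In May, dropping unshaded replicate 1 or 2 gave 10 or 130, and dropping shaded replicate 1 or 2 gave 8 or 12. The 20 ranked transcripts had been chosen for the same direction in both months, so their values in this test are not given as a result. All 10 upward ones had a larger difference in August than in May, against 65.4% of all transcripts higher in both months. Of the 10 downward ones 6 did, against 47% of all transcripts lower in both months. The 20 had also been ranked by p on these same libraries, so neither count is read as a result about them.

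**Figure D5:**
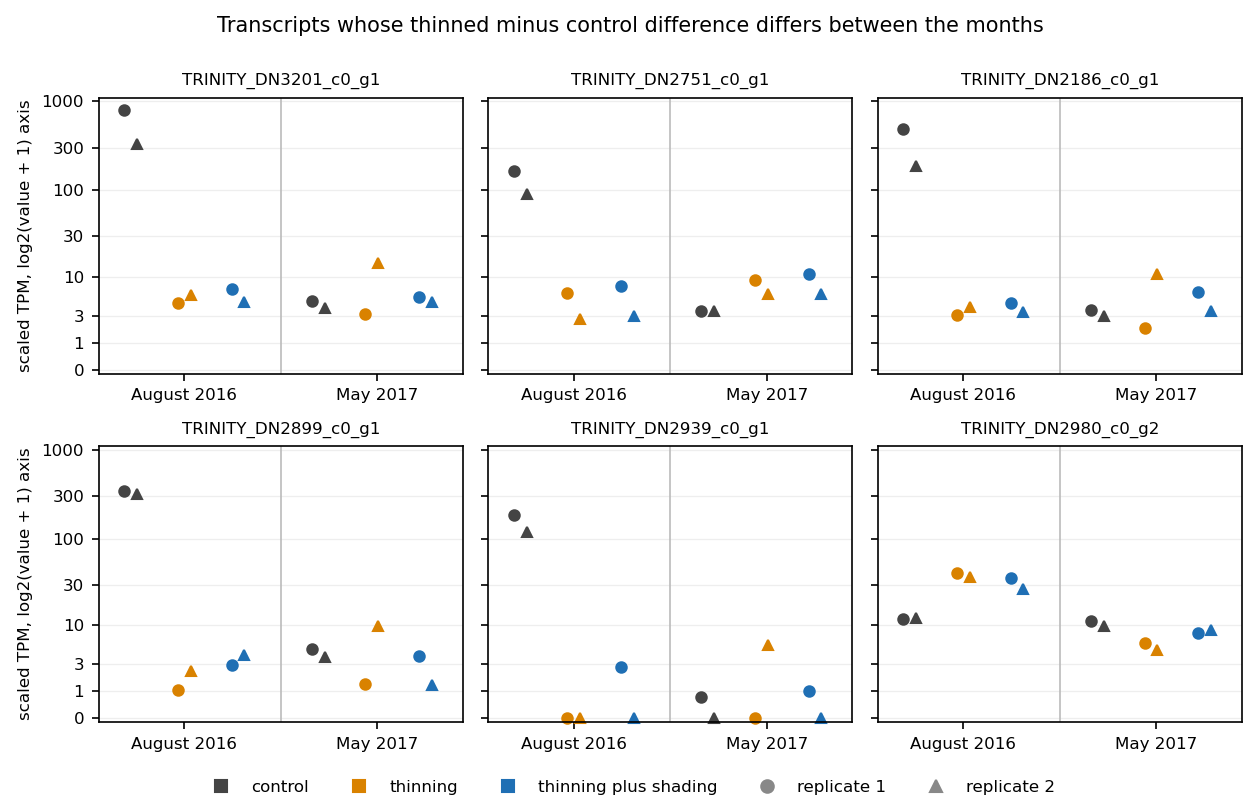
Scaled TPM per library, on a log2(value + 1) axis, for 6 transcripts whose thinned minus control difference differed between August and May; colours give the treatment and shapes the replicate. In the first 5 panels the 2 control points of August stand at 91.4 or more and every other point at 14.5 or less, while TRINITY_DN2980_c0_g2 is above control in August and below it in May.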

How the data were processed

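Needle RNA of 12 libraries was compared. Per the submitters' processing notes, Trimmomatic, RSEM and DESeq2 were used; no source used here gives the assembly, versions or scaling. The deposited table holds a signal for 329801 transcripts. Its columns sum to 856638 to 1179097, and after rescaling to a common total at least 99.35% of non-zero values fall on multiples of 0.01, to within 0.1 of that step, so they are TPM with a factor per library, called scaled TPM. Depth is unknown, so no count test and no counting interval was possible. The extraction protocol text speaks of pine seedling roots, whereas tissue and organism labels say fir needles; the labels were followed.

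The 19726 transcripts that reached 10 in 2 or more libraries entered the test as log2(scaled TPM + 1) with limma 3.58.1 in R 4.3.3, with an intensity trend and Benjamini-Hochberg adjustment over all of them. The fit over both months had month and density as terms; August and May were also fitted alone, and products of month and density and a light term were added for the interaction and light tests. Ranked transcripts are those with no overlap in either month and a mean of 10 or more in the higher group: first the called ones, then, up to 10 per direction, those with the smallest p. The largest calls of August alone and the 3 smallest p of the interaction were also named. Scripts were tested on simulated data. The comparison, members and rules were chosen with earlier results of these data known. Alternatives covered the added constant, the filter, scaling, library weights, the trend, a replicate block and each library left out. Column names equal the description labels.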

Additional observations from a re-analysis of the deposited data

Results flagged for a closer look

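Within the 4 thinned libraries of a month, 9 of 66 sets of values held a library far from the other 3, where chance gives about 1 set in 20. In August, TRINITY_DN2080_c0_g2 was at 8.46 in thinning replicate 1 against 23.8 to 28.1, and TRINITY_DN6760_c0_g1 at 62.3 in thinning replicate 2 against 71.5 to 73.1. Also in August, TRINITY_DN40878_c0_g1 was at 5.2 in thinning plus shading replicate 2 against 7.11 to 7.55. Thinning plus shading August replicate 1 was at 19.9 for TRINITY_DN1356_c1_g4, against 12.8 to 13.6, and at 2.11 and 2.67 for TRINITY_DN2939_c1_g1 and TRINITY_DN2939_c0_g1, which the other 3 libraries listed at 0. In May, thinning replicate 2 was at 98.9 for TRINITY_DN6760_c0_g2 against 70.1 to 71.7, and at 15.2 for TRINITY_DN2939_c1_g1 against 0. Thinning May replicate 1 listed 133340 transcripts at 1 or more against 47803 to 60118.

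TRINITY_DN3201_c0_g1, TRINITY_DN2751_c0_g1 and TRINITY_DN2186_c0_g1 had been named for their small p in the test between the months, so their result here was fixed. TRINITY_DN2939_c0_g1 and TRINITY_DN2899_c0_g1 had been named as large falls of August and reached 10 in the control August libraries alone. The thinned minus control difference differed between the months by limma in these 5 named transcripts. It was higher in May by 7.29 log2 units for TRINITY_DN2939_c0_g1 (limma adjusted p = 0.0449), 6.23 for TRINITY_DN2899_c0_g1 (0.0322), 6.72 for TRINITY_DN3201_c0_g1, 5.43 for TRINITY_DN2751_c0_g1 and 6.44 for TRINITY_DN2186_c0_g1 (0.0156 each).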

How the results depend on the processing

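For density over both months (1 call), there were 9 and 0 calls with 0.5 and 8 added before the logarithm, 10 with no filter, 6 with a filter of 50, 17 after quantile normalization, 626 with library weights, 18 with 6 group means, 69 without both thinning May libraries, and 0 to 155 without 1 library. August alone (531) gave 175 with a filter of 50 and 36 to 487 without 1 library. The interaction (49) gave 6 and 220 with 0.5 and 8 added, 189 with no filter, 16 with a filter of 50, 120 with library weights, 177 without the trend, 4 without both thinning May libraries and 0 to 130 without 1 library. Light (0) gave 2 with no filter, 5 with library weights and 0 to 6 without 1 library. The count without overlap in both months (549) was 1443 with no filter, 125 with a filter of 50, 1736 without both thinning May libraries and 582 to 1436 without 1 library. The median May difference of transcripts higher in August (0.39) was 0.89 with no filter and 0.30 to 1.94 without 1 library, and that of the lower ones (0.08) was -0.74 to 0.27 without 1 library. The share of the summed value in the 10 most abundant transcripts differed by -0.0257 percentage points and by -0.662 to 0.65 without 1 library, and that in the 100 most abundant by 0.53 and by -0.448 to 1.58. With no filter 315892 transcripts enter and with a filter of 50 4834 do; the cause of the changes was not tested. All values of named transcripts kept their direction (616 of 616), with 35 calls lost and 88 gained. Of these values, 467 belong to the ranked transcripts, which were chosen for no overlap in either month. Their direction could therefore not reverse when a library was left out. The other named transcripts were picked for large differences or small p on the same libraries. The kept direction was thus favoured by the choice and is not read as a result. Leaving out a control August library leaves 1 control in August, assumed to vary like the other libraries.

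Replicate numbers did not pair the libraries alike in all treatments. The deviations of replicate 1 from replicate 2 correlated between groups at -0.18 to 0.216 in August. In May they correlated at 0.629 between unshaded and shaded thinned trees, and at -0.707 and -0.539 between control and these. A block by replicate number treats all treatments alike, so it does not take up the opposed sign of the May controls. With the replicate block, density over both months gave 1 call, August alone 320, the interaction 4, 1 of the 20 ranked transcripts passed, May and light 0, and the median May difference of transcripts higher in August was 0.71.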

Other observations

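The largest May difference without overlap belonged to TRINITY_DN27555_c0_g1, chosen after its values had been seen. It stood at 1.04 and 2.95 scaled TPM in control and at 2781, 722, 3747 and 137 in thinned libraries of May. In August it was at 1272 in thinning replicate 1 and between 1.05 and 30.5 in the other 5 libraries. Its May difference of 8.47 log2 units (SE 1.39) did not pass by limma (adjusted p = 1). TRINITY_DN12339_c0_g1 went the other way in May, at 83.9 and 324 in control and 1.43 to 14.7 in thinned libraries (-4.78, SE 0.94; limma adjusted p = 1), whereas in August controls at 48.4 and 54.9 lay between shaded trees at 13.4 and 3.91 and unshaded trees at 108 and 74.9. TRINITY_DN11133_c0_g3 was at 102 and 356 in control and 4.07 to 26.2 in thinned libraries of May. TRINITY_DN289180_c0_g1 was listed at 0 in all 6 August libraries. It stood at 11.8 and 160 in control in May, against 3.86 or less in thinned libraries. It passed the filter only with the control May libraries, the group in which it stood high. The May difference did not pass by limma for this transcript (-4.76, SE 1.17) or for TRINITY_DN11133_c0_g3 (-4.14, SE 0.82).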
